A study of Mus musculus with 12 samples.

Results

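The urea cycle and periportal amino acid breakdown were followed here through 10 enzyme genes: 5 of the urea cycle (Cps1, Otc, Ass1, Asl and Arg1) and 5 of amino acid and aldehyde catabolism (Hal, Sds, Tat, Gls2 and Aldh1b1), out of 18193 genes named on the array. Members were taken by gene symbol from the platform annotation. It gave 10 probe sets for 8 of the 10 genes, and Sds and Gls2 were not analysed here because none of the probe sets used carried either symbol. All 8 genes passed the filter on dim probe sets, so that 5 urea cycle and 3 catabolic genes were tested among 14568 genes. The livers came from C57Bl/6J mice, 3 months old, either control (titled Fe+CRE+) or Ire1α null (Fe-CRE+). The titles mark both genotypes CRE+, and the labels give neither the promoter behind the Cre nor the part of the gene deleted. Tunicamycin stresses the endoplasmic reticulum (ER) by blocking N-linked glycosylation, and was given into the peritoneum at 2 µg per g of body weight. Mice without ER stress received a 150 µM dextrose vehicle by the same route. Livers were taken 8 hours later, and each of the 4 groups (control vehicle, control tunicamycin, null vehicle, null tunicamycin) held 3 biological replicates, 1 Affymetrix array each.

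The urea cycle turns ammonia released from amino acids into urea, and runs mainly in hepatocytes around the portal vein. Cps1 (carbamoyl phosphate synthetase) and Otc (ornithine transcarbamylase) work in the mitochondria, and Ass1 (argininosuccinate synthase), Asl (argininosuccinate lyase) and Arg1 (arginase) in the cytosol. The catabolic enzymes feed the cycle or act beside it: Hal (histidase) removes ammonia from histidine, and Tat (tyrosine aminotransferase) starts tyrosine breakdown. Aldh1b1 is a mitochondrial aldehyde dehydrogenase, and so is not itself an amino acid deaminating enzyme. Ire1α, encoded by Ern1, is an ER membrane kinase and RNase that senses unfolded protein.

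The mean intensity of an array, without its 2% highest and lowest values, lay between 227 and 302. Of 8 hepatocyte markers 6 were tested, including Alb and Ttr. On average each of the 6 lay above at least 99.84% of probe sets, and their mean normalized log2 level lay between 13.67 and 13.74 in all 12 arrays. None of the 6 passed the test with tunicamycin in either genotype. Quantile normalization gives the brightest probe sets of every array nearly the same values. The levels of these 6 therefore do not check the share of hepatocytes. The array null tunicamycin replicate 2 stood apart: 8 of 10 tested kidney markers exceeded their maximum in the other 11 arrays by over 1 on the log2 scale, for example Umod at 13.14 against 6.55 at most. The mean level of the 10 markers was 9.98 there and 5.26 to 5.86 in the other arrays. The bile duct markers averaged 7.31 there and 5.12 to 5.90 elsewhere. Kidney also makes argininosuccinate synthase and lyase, so the member results for the response of null livers are given with and without this array. Kupffer cell markers averaged 9.68 to 10.08 in control vehicle, 9.17 to 9.61 in control tunicamycin, 9.16 to 9.62 in null vehicle and 8.54 to 9.29 in null tunicamycin livers. Of these 7 markers 1, Adgre1, fell with tunicamycin in both genotypes (-0.75 ± 0.21, adjusted p = 0.0196, and -0.81 ± 0.21, adjusted p = 0.0195). Over all genes 13.3% fell in control and 9.23% in null livers. The median change of the 7 was -0.63 in control and -0.53 in null livers, beside -0.11 and -0.07 over all genes. The only erythroid marker tested, Alas2, fell too (-0.82 ± 0.28, adjusted p = 0.0477, in control and -1.33 ± 0.28, adjusted p = 0.00675, in null livers), with no overlap between vehicle and tunicamycin arrays of a genotype. The part of these cells in the results was not tested. Of the 5 Ern1 probe sets none differed between genotypes by the limma test (differences from -0.37 to 0.10 on the log2 scale, smallest adjusted p = 0.678). Since the part of the gene deleted is unknown here, these probe sets do not check the genotype.

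In GRCm38.p6 the urea cycle genes lie on chromosomes 1 (Cps1, 67122426 to 67231267), X (Otc, 10252230 to 10321024), 2 (Ass1, 31470270 to 31520670), 5 (Asl, 130011258 to 130024381) and 10 (Arg1, 24915207 to 24927470). The catabolic genes lie on chromosomes 10 (Hal, 93488768 to 93516761), 8 (Tat, 109986078 to 109999804) and 4 (Aldh1b1, 45799022 to 45804608). The 250 bases before the transcription start were at hand for 5 of the 8 measured genes (RefSeq, GRCm38.p6). Those of 3 genes that fell with tunicamycin and of Tat, which did not pass the test, are printed 5′ to 3′ to set the starts of these genes side by side. Capitals mark a CCAAT box (CCAAT) or a TATA box (TATAAA), found on either strand by exact match. The windows are chr10:93488518-93488767 for Hal, chr4:45798772-45799021 for Aldh1b1, chrX:10252055-10252304 for Otc and chr8:109990186-109990435 for Tat, all on the plus strand. The transcript starts used for Otc and Tat lie inside the annotated span of the gene.
Hal: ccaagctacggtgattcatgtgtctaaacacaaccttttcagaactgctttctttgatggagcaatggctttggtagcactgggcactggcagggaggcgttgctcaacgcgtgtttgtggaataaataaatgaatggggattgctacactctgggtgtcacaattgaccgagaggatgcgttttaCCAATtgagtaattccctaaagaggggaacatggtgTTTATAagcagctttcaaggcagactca
Aldh1b1: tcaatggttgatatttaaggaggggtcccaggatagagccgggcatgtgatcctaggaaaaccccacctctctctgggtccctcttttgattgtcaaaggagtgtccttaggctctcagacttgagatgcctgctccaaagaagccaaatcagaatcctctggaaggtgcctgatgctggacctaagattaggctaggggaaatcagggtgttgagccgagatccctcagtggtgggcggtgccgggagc
Otc: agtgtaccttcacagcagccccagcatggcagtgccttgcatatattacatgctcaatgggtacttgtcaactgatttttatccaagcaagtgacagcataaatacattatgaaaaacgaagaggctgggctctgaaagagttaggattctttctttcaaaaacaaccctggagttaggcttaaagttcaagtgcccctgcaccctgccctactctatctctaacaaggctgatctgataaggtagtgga
Tat: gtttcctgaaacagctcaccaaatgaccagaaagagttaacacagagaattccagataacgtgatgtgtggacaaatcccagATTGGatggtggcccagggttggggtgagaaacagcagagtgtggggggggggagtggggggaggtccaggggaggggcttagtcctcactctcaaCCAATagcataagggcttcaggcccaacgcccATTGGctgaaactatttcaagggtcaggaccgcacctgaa
Hal had 1 TATA box match, on the minus strand (printed as TTTATA), 28 to 23 bases before the start. It also had 1 CCAAT box on the plus strand, 64 to 60 bases before the start. Tat had 3 CCAAT boxes, the nearest 40 to 36 bases before the start and on the minus strand (printed as ATTGG). The others lay 72 to 68 bases before it on the plus strand and 168 to 164 on the minus strand. The other windows, that of Ass1 included, held neither motif. Among 32851 promoter windows of the same length 12.4% held a TATA box and 33.8% a CCAAT box. None of the 5 windows held a match to any of the other 8 motifs searched on both strands. These were the ER stress element (CCAAT, any 9 bases and CCACG, in 0.113% of windows, which begins with the CCAAT box), the unfolded protein response element (TGACGTG, 1.65%), the cAMP response element (TGACGTCA, 1.55%), the composite element of ATF4 and C/EBP (TGATGCAA, 0.791%), the C/EBP palindrome (TTGCGCAA, 0.164%), the HNF1 site (GTTAAT, any base and ATTAAC, 0.00913%), the HNF4 site (CAAAGTCCA, 0.384%) and the glucocorticoid receptor hexamer (AGAACA, 16.1%). That no match was found says only that these letters are not in these 250 bases.

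The first comparison, of tunicamycin with vehicle in control livers, addresses the response to ER stress when Ire1α is present. Hal fell to 19.5% and Aldh1b1 to 25.4% of the vehicle level. Asl, Arg1 and Otc, read by its brightest probe set, fell by less than 2-fold, and Cps1, Ass1 and Tat did not pass the test. Of the 8 genes 5 fell and 0 rose at an adjusted p under 0.05 (limma over all genes, Benjamini-Hochberg). Over all genes 13.3% fell and 11.6% rose. Changes are log2 fold changes of normalized log2(intensity + 16), tunicamycin minus vehicle, ± the standard error of the fit with n = 3 arrays per group.

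Hal, the histidase gene, had deposited intensities of 3796, 3903 and 4074 in control vehicle livers and of 836, 1060.4 and 749 with tunicamycin. The groups were far apart, and the highest stressed array lay below the lowest vehicle array. The log2 change was -2.36 ± 0.22 (adjusted p = 1.49e-05), a 5.12-fold fall, and 0.309% of all genes tested had a more negative change. Aldh1b1 read 815, 663 and 598 with vehicle and 288, 176 and 123 with tunicamycin. Here too the groups did not overlap, and the change was -1.98 ± 0.21 (adjusted p = 4.28e-05), a 3.93-fold fall. Tat read 6912, 7005 and 8242 with vehicle and 8740.4, 10318 and 10328 with tunicamycin. Its deposited intensities did not overlap and were higher with tunicamycin, but its normalized values did overlap. The change of 0.28 ± 0.14 did not pass (adjusted p = 0.152; 95% interval -0.01 to 0.58). It passed only with the trend and robust options of eBayes (adjusted p = 0.0463), and lay between 0.0463 and 0.337 over all alternatives. In bulk tissue fewer cells of a type and less RNA per cell cannot be told apart.

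**Figure D1:**
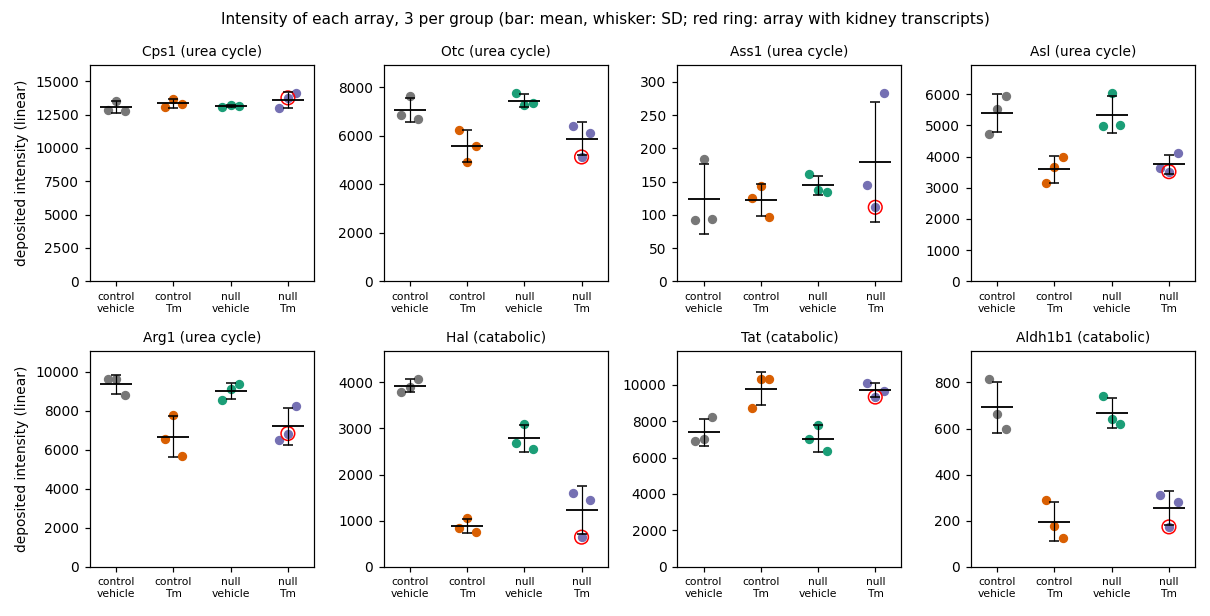
Deposited linear intensity of the 8 measured genes in each array (points), with the mean and SD of the 3 arrays of a group, for control and null livers with vehicle or tunicamycin (Tm); the red ring marks null tunicamycin replicate 2, the array with kidney transcripts. Hal falls from 3796 to 4074 in control vehicle livers to 749 to 1060.4 with tunicamycin, while Cps1 stays between 12803 and 14086 in all 12 arrays.

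By the probe sets used for each gene, the urea cycle genes moved less than Hal and Aldh1b1. Cps1, which makes carbamoyl phosphate from ammonia, read between 12803 and 14086 over all 12 arrays and changed by -0.10 ± 0.11 (adjusted p = 0.581). The 95% interval was -0.34 to 0.15, and the sign depended on the scaling (0.03 with values as deposited). On average Cps1 lay above 99.95% of probe sets, where quantile normalization gives nearly the same values in every array. Its normalized values therefore say little about a change. Whether its deposited intensities could still follow a change at this brightness was not tested. Asl, which splits argininosuccinate, read 4734, 5517 and 5952 with vehicle and 3139, 3652 and 3988 with tunicamycin. All stressed arrays lay below all vehicle arrays (-0.78 ± 0.15, adjusted p = 0.002). Arg1, which releases urea from arginine, read 9631, 9607 and 8802 with vehicle and 6558, 7767 and 5699.5 with tunicamycin. Its groups were separate as well (-0.65 ± 0.14, adjusted p = 0.00513). On the normalized scale 6 of the 8 genes had stressed arrays wholly below the vehicle arrays, Cps1 among them, against 24.5% of all genes.

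Ass1 could not be read well. The single probe set annotated to it alone was dim, with 91.9, 184 and 93.9 in vehicle and 126, 144 and 96.1 in tunicamycin livers (-0.09 ± 0.28, adjusted p = 0.853). Its 95% interval, -0.71 to 0.53, holds changes as large as those of Arg1. A further probe set is annotated both to Ass1 and to the transcribed pseudogene Gm5424, and was not assigned to either. It was bright, between 8104 and 11610.1, and changed by -0.10 ± 0.15 in control livers (adjusted p = 0.731) and -0.05 ± 0.15 in null livers (adjusted p = 0.897), in a limma fit of 34946 probe sets.

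The 3 Otc probe sets fell by different amounts, so that the size of the Otc change depends on which one is read. These values come from a limma fit of all 34945 probe sets with 1 symbol, of which 7.03% were lower with tunicamycin in control livers. The brightest read 6829.7, 7632 and 6698 with vehicle and 6235, 4931 and 5558 with tunicamycin, a change of -0.50 ± 0.14 (adjusted p = 0.0302). The next read 7722, 7470.3 and 7377 with vehicle and 4729, 3726 and 4897 with tunicamycin. Its change was -0.94 ± 0.14 (adjusted p = 0.000783). The dim one read 351, 338 and 214 with vehicle and 54.1, 20.9 and 32.9 with tunicamycin. Its fitted change was -2.73 ± 0.27 (adjusted p = 3.27e-05). Its stressed values come near the pseudocount of 16 and were not tested against background, so the size of this change is uncertain. All 3 probe sets were thus lower in every stressed control liver than in any vehicle control liver.

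**Figure D2:**
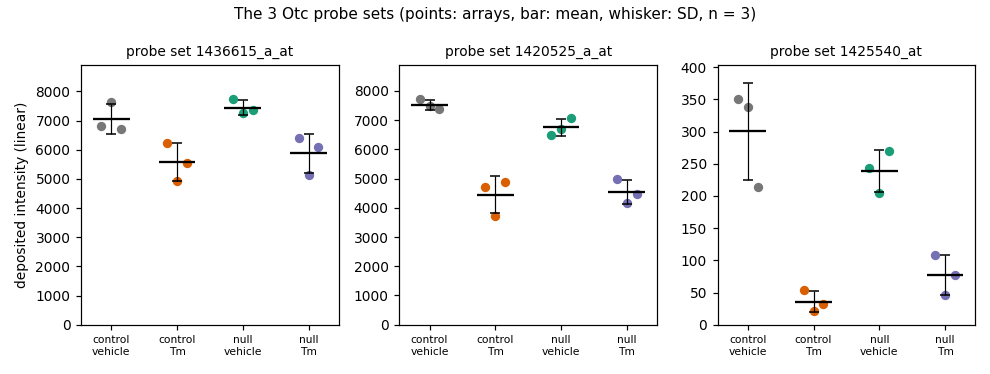
Deposited linear intensity of the 3 Otc probe sets in each array (points), with the mean and SD of 3 arrays per group; panels run from the brightest (left) to the dimmest (right), each with its own axis from 0. In control livers the dim probe set (right panel) falls from 214 to 351 with vehicle to 20.9 to 54.1 with tunicamycin, and the brightest from 6698 to 7632 to 4931 to 6235.

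As classes, the 5 urea cycle genes had a mean change of -0.42 (median -0.50) in control livers and the 3 catabolic genes of -1.35 (median -1.98), beside a median of -0.11 over all genes. The catabolic mean was therefore 0.93 lower on the log2 scale (a difference of -0.93). Within a single array, the catabolic mean level minus the urea cycle mean level varied between replicates with an SD of 0.17, pooled over the 4 groups. This is the spread of single arrays, not that of the difference of -0.93. Averaging all probe sets of each gene, rather than taking the brightest, gave a difference of -0.75. By array, the catabolic mean lay between -1.50 and -1.25 against the control vehicle mean in stressed control livers, and the urea cycle mean between -0.46 and -0.37. The class means do not describe every gene: Tat belongs to the catabolic class and was the only one of the 8 with a positive change (Cps1 and Ass1 joined it with array medians centred or values as deposited), so the class mean rests on Hal and Aldh1b1. The urea cycle mean likewise joins Cps1 (-0.10) and Ass1 (-0.09), whose dim probe set could not be read well, with Otc (-0.50), Arg1 (-0.65) and Asl (-0.78). Otc enters it by its brightest probe set, which fell least of its 3. No test was made of the classes, since their members were chosen with results of these data known.

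Probe sets differed in brightness, though not strictly by class. Those of Cps1, Otc (the 2 brighter), Asl, Arg1 and Tat were each brighter than at least 98.12% of all probe sets, against 93.81% for Hal, 80.98% for Aldh1b1, 68.71% for Ass1, with a change of -0.09, and 65% for the dim Otc probe set. Among the 491 tested genes in the brightest 2%, 17.3% fell with tunicamycin in control livers, but only 3 of them by more than 1 (log2), with -1.21 as the lowest change. In the next brightness class, from 90 to 98% and holding Hal, 151 of 2379 genes fell by more than 1, and from 75 to 90%, holding Aldh1b1, 295 of 4170. From 50 to 75%, holding Ass1, 150 of 4397 did so. The part of brightness in the size of the members' changes was not tested. This grouping was added after the data had been seen.

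**Figure D3:**
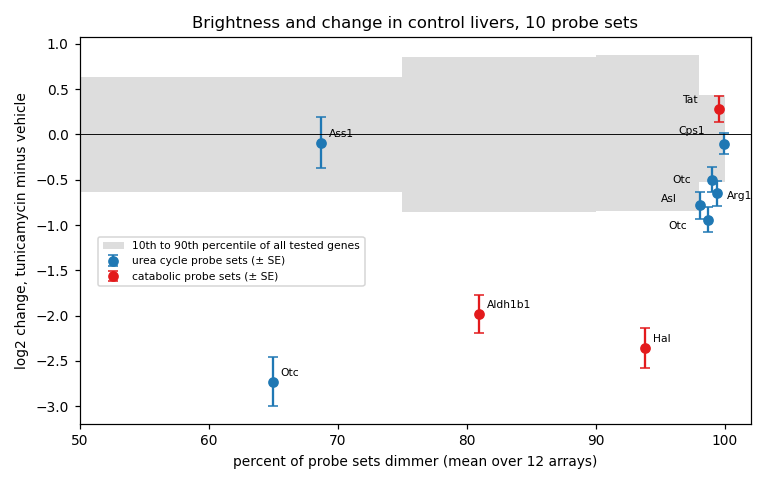
Log2 change with tunicamycin in control livers (± standard error) of the 10 probe sets, against the percentage of probe sets that were dimmer; grey bands run from the 10th to the 90th percentile of all tested genes in that brightness range. The urea cycle probe sets above 98% change by -0.94 to -0.10, while Hal (-2.36), Aldh1b1 (-1.98) and the dim Otc probe set (-2.73) lie further left and lower.

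The same comparison in Ire1α null livers addresses the response in that genotype, in which loss of the kinase was not checked here. Hal, Aldh1b1, Asl and Otc fell again, 4 of the 8 genes, against 9.23% of all genes, and 0 rose, against 7.59%. Hal read 2687, 3104 and 2553 with vehicle and 1592, 641 and 1453 with tunicamycin. The stressed arrays were lower, but the array with kidney transcripts (641) lay far below the other two. The change was -1.48 ± 0.22 (adjusted p = 0.000852), and -1.19 without that array (adjusted p = 0.000787). Aldh1b1 read 739, 642 and 621 with vehicle and 311, 173 and 281 with tunicamycin, again with the kidney-marked array lowest. The change was -1.64 ± 0.21 (adjusted p = 0.000347), and -1.52 without that array (adjusted p = 0.00126).

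Among the urea cycle genes of null livers Asl read 4985, 6025 and 5011 with vehicle and 3621, 3515 and 4105 with tunicamycin. Its arrays did not overlap (-0.70 ± 0.15, adjusted p = 0.00651; -0.73 without the kidney-marked array, adjusted p = 0.0127), though the call was lost with values as deposited (-0.51, adjusted p = 0.0528). The brightest Otc probe set read 7739, 7248 and 7352 with vehicle and 6392, 5121 and 6109 with tunicamycin. This change of -0.47 ± 0.13 (adjusted p = 0.0316) lost its call without any 1 of null vehicle replicates 1 and 3 and null tunicamycin replicates 2 and 3 (adjusted p = 0.0763 to 0.0956), the kidney-marked array among them (-0.43, adjusted p = 0.0763). The replicate number as a block also ended the call (adjusted p = 0.0506). In the fit of every probe set, where 4.39% fell, the brightest missed the threshold (-0.47 ± 0.14, adjusted p = 0.0556), and the other 2 Otc probe sets fell, with changes of -0.71 ± 0.14 (adjusted p = 0.00896) and -1.72 ± 0.27 (adjusted p = 0.00192). Arg1 read 8566, 9100.2 and 9356 with vehicle and 6503, 6828 and 8242 with tunicamycin, separate groups whose change of -0.44 ± 0.14 did not pass (adjusted p = 0.0524; -0.46 without that array, adjusted p = 0.0797). Cps1 changed by 0.01 ± 0.11 (adjusted p = 0.975) and the lone Ass1 probe set by -0.02 ± 0.28 (adjusted p = 0.966). Without the array these were 0.00 (adjusted p = 0.988) and 0.14 (adjusted p = 0.802), so the sign of the Ass1 change turned. Tat read 6999, 7808 and 6338 with vehicle and 10121, 9328 and 9674 with tunicamycin. All stressed arrays were higher, but the change of 0.34 ± 0.14 did not pass (adjusted p = 0.114; 0.32 without the array, adjusted p = 0.191). Of the 8 genes 5 were separate downward (19.4% of all genes) and 1, Tat, upward (13.6%). The class means were -0.33 for the urea cycle and -0.93 for the catabolic genes, a difference of -0.60 beside a median of -0.07 over all genes. Without the array the difference was -0.50 and 3 members were called.

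The scaling matters for the smaller changes. In control livers the median change of all genes was -0.11 after quantile normalization and 0.01 with values as deposited, and in null livers -0.07 and 0.08. Relative to the quantile medians, Asl changed by -0.67 in control and -0.64 in null livers, Otc by -0.39 and -0.40, Arg1 by -0.54 and -0.37, and Tat by 0.39 and 0.40. Otc, read by its brightest probe set, did not pass with values as deposited in control (-0.34, adjusted p = 0.129) or in null livers (-0.35, adjusted p = 0.151), nor with array medians centred (-0.36, adjusted p = 0.0953, and -0.42, adjusted p = 0.0766). Over all alternatives the Otc change lay between -1.39 and -0.34 in control and between -0.97 and -0.35 in null livers. Its call in control livers was also lost without control vehicle replicate 2 (adjusted p = 0.0646) or control tunicamycin replicate 2 (adjusted p = 0.08). The 5′ to 3′ ratio of the actin control probe sets was lower in stressed control arrays (0.296 to 0.389) than in their vehicle arrays (0.454 to 1.097). With this ratio as a covariate Otc (-0.45, adjusted p = 0.142) and Asl (-0.65, adjusted p = 0.0507) lost their calls in control livers. Hal (-2.6) and Aldh1b1 (-2.15) kept theirs there.

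**Figure D4:**
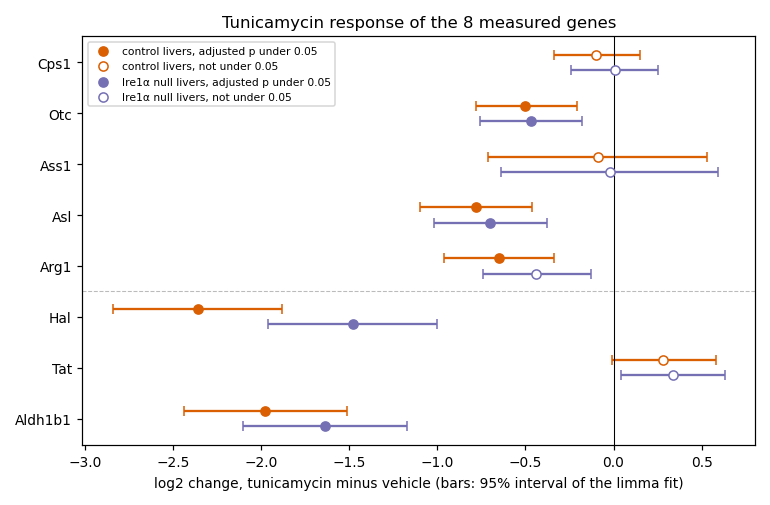
Log2 change with tunicamycin of the 8 measured genes in control (orange) and Ire1α null (violet) livers, with 95% intervals of the limma fit and filled points at an adjusted p under 0.05; the dashed line parts urea cycle (above) from catabolic genes (below). Hal changes by -2.36 and -1.48 and Aldh1b1 by -1.98 and -1.64, and the 5 urea cycle genes lie between -0.78 and 0.01.

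Between genotypes none of the 8 genes passed, with vehicle or with tunicamycin. With vehicle limma called 0 of all 14568 genes (597 had an unadjusted p under 0.05, or 1 gene called when only the 2 groups were fitted), and 0 of the 8 had an unadjusted p under 0.05. Hal came closest: every null vehicle array (2553 to 3104) lay below every control vehicle array (3796 to 4074), with a difference of -0.44 ± 0.22 (adjusted p = 0.988). Downward separation of this kind was found for 4.41% of genes. With tunicamycin 3.99% of all genes were called (0.755% higher and 3.23% lower in null livers) and 0 of the 8, none with an unadjusted p under 0.05. There Hal differed by 0.44 ± 0.22 (adjusted p = 0.378) and Aldh1b1 by 0.34 ± 0.21 (adjusted p = 0.488). These comparisons share arrays with the tunicamycin responses. From high to low the mean intensity of Hal was 3924 ± 140.5 (SD, n = 3) in control vehicle, 2782 ± 287 in null vehicle, 1228 ± 514 in null tunicamycin and 882 ± 161 in control tunicamycin livers. The last 2 groups overlapped, through the kidney-marked array alone.

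The Hal response differed between genotypes by 0.88 ± 0.31 (the null change minus the control change; unadjusted p = 0.0152, adjusted p = 0.369). It did not pass, and 0 of the 8 genes passed this interaction, against 0.837% of all genes. Without the kidney-marked array the Hal interaction was 1.16 (adjusted p = 0.0401), and the difference between stressed null and control livers 0.72 (adjusted p = 0.0373). Under the other alternatives the adjusted p of the interaction lay between 0.267 and 0.634, and that of the stressed comparison between 0.321 and 0.718. The Hal result between genotypes therefore rests on whether this array is used. Its deposited Hal intensity was the lowest of the 12, but after normalization control tunicamycin replicates 1 and 3 were slightly lower (-2.51 and -2.50 against the control vehicle mean, and -2.49 for this array). The part of its kidney transcripts in that value was not tested. Without it the null tunicamycin group holds 2 arrays. For Aldh1b1 the interaction was 0.34 ± 0.30 (adjusted p = 0.881), and 0.47 without the array (adjusted p = 0.811).

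Of 58 other listed genes of amino acid breakdown 50 were tested. In control livers 11 of the 50 fell and 0 rose, where 13.3% of all genes fell, with a median change of -0.33 against -0.11 over all genes. Gldc, the glycine decarboxylase of the glycine cleavage system, fell most (-3.11 ± 0.40, adjusted p = 0.000155). Tryptophan breakdown fell in 3 of 5 genes: Afmid, the kynurenine formamidase (-1.84 ± 0.21), Haao (-0.85 ± 0.17) and Kynu (-0.81 ± 0.19; largest adjusted p = 0.00733). Tdo2, which opens that pathway, changed by -0.11 ± 0.12 (adjusted p = 0.546). The tryptophan count of 3 was 2 with array medians centred, with values as deposited and when the actin ratio entered the fit. Below Tat in tyrosine breakdown, Hgd fell (-0.81 ± 0.13, adjusted p = 0.00056) and Hpd changed by -0.02 ± 0.11 (adjusted p = 0.926). Below Hal in histidine breakdown 0 of 3 genes passed: Uroc1 changed by -0.62 ± 0.25 (adjusted p = 0.0917), Ftcd by -0.15 ± 0.17 and Amdhd1 by 0.16 ± 0.25. Of the rest, 2 of 7 serine, glycine and threonine genes, 1 of 15 branched-chain genes (Pcca, -0.72 ± 0.13), 3 of 7 proline and lysine genes (Aldh4a1, -0.95 ± 0.26, among them) and 0 of 7 methionine and cysteine genes fell. The count of 11 was 5 with values as deposited, 6 with array medians centred, 6 when the actin ratio entered the fit, 13 without null tunicamycin replicate 2 and 14 when the Gapdh ratio entered it.

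**Figure D5:**
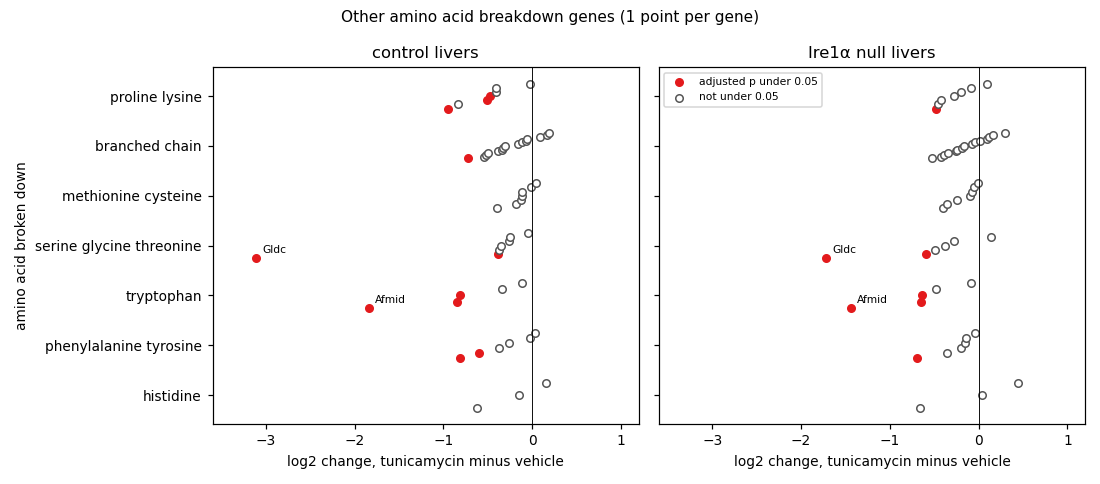
Log2 change with tunicamycin of 50 other amino acid breakdown genes, 1 point per gene, by the amino acid they break down, in control (left) and Ire1α null livers (right); filled points have an adjusted p under 0.05. Gldc (-3.11 and -1.72) and Afmid (-1.84 and -1.44) lie furthest left in both panels, and no filled point lies right of 0.

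In null livers 7 of the 50 fell and 0 rose, where 9.23% of all genes fell and 7.59% rose (median -0.22, all genes -0.07), among them Gldc (-1.72 ± 0.40), Afmid (-1.44 ± 0.21), Hgd (-0.69 ± 0.13) and Agxt (-0.59 ± 0.13; largest adjusted p = 0.0125). Without the kidney-marked array 7 fell and 1 rose. The count of falls was 3 with values as deposited and 4 when the actin ratio entered the fit. None of the 50 passed the limma interaction, Gldc included (1.39 ± 0.57, adjusted p = 0.495).

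Of 16 tested genes that supply or support the urea cycle, 3 rose and 2 fell in control livers, where 11.6% of all genes rose and 13.3% fell. The aspartate aminotransferase Got1 (1.14 ± 0.21), the ammonium transporter Rhbg (0.88 ± 0.22) and the alanine aminotransferase Gpt2 (0.54 ± 0.15) rose. Glutamate dehydrogenase, Glud1 (-0.44 ± 0.15), and the urea and glycerol channel Aqp9 (-0.52 ± 0.14) fell (largest adjusted p = 0.0449 for the 5), and both falls were lost with values as deposited, where 3 rose and 0 fell. When the actin ratio entered the fit 1 rose and 0 fell, and when the Gapdh ratio did 3 rose and 4 fell. Nags, whose product activates Cps1, changed by -0.66 ± 0.24 (adjusted p = 0.0677), and the ornithine carrier Slc25a15 by -0.16 ± 0.14 (adjusted p = 0.464). In null livers 0 rose and 2 fell: Oat, ornithine aminotransferase (-0.55 ± 0.12), and Aqp9 (-0.46 ± 0.14; largest adjusted p = 0.0453), against 9.23% of all genes that fell. With values as deposited 1 rose and 0 fell, with array medians centred 1 rose and 1 fell, and without the kidney-marked array 0 rose and 1 fell. Got1 was lower in stressed null than in stressed control livers (-0.95 ± 0.21, adjusted p = 0.0277), a call lost when the Gapdh ratio entered the fit, and its interaction did not pass (-0.81 ± 0.30, adjusted p = 0.421).

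Markers of the zones of the lobule were read beside these. Of 10 other periportal genes tested 4 fell and 1 rose in control livers (median -0.31), where 13.3% of all genes fell and 11.6% rose, with Igfals (-2.74 ± 0.22), the periportal cadherin Cdh1 (-1.47 ± 0.33) and Etnppl (-1.31 ± 0.29) falling most and the glucose-6-phosphatase gene G6pc rising (0.57 ± 0.18; largest adjusted p = 0.0415). The rise of G6pc was lost when the actin or the Gapdh ratio entered the fit. The gluconeogenic Pck1 changed by -0.36 ± 0.14 (adjusted p = 0.0737). Of 10 pericentral genes tested 0 passed in either genotype (limma; medians -0.25 and -0.33), but 1 fell in each genotype when the actin ratio entered the fit. In null livers 2 of the 10 periportal genes fell and 0 rose (median -0.18), where 9.23% of all genes fell and 7.59% rose. The 2 were Igfals (-3.05 ± 0.22) and Etnppl (-1.82 ± 0.29, largest adjusted p = 0.00117). The difference between the periportal and the pericentral list was not tested.

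Of 15 tested genes listed as regulators 3 rose and 4 fell in control livers, where 11.6% of all genes rose and 13.3% fell. When the actin ratio entered the fit 2 rose and 2 fell. Whether the listed regulators act on the member genes was not tested. Cebpa, the C/EBP factor of mature hepatocytes (-1.44 ± 0.29), Foxa2 (-1.88 ± 0.32), the coactivator Ppargc1a (-1.91 ± 0.49) and the glucocorticoid receptor Nr3c1 (-0.75 ± 0.16) fell, and the stress factors Ddit3 (6.01 ± 0.24) and Atf4 (2.11 ± 0.14) and Foxa3 (0.95 ± 0.24) rose (largest adjusted p = 0.014). In null livers Ddit3 (5.37 ± 0.24), Atf4 (2.05 ± 0.14) and Foxa3 (1.01 ± 0.24) rose and Foxa2 fell (-1.27 ± 0.32, largest adjusted p = 0.0186). Over all genes 7.59% rose and 9.23% fell there. The fall of Foxa2 was lost with array medians centred (3 rose, 0 fell) and with values as deposited (5 rose, 0 fell), and without the kidney-marked array 3 rose and 2 fell. Cebpa changed there by -0.88 ± 0.29 (adjusted p = 0.0577) and Nr3c1 by -0.28 ± 0.16 (adjusted p = 0.27). Hnf4a changed by 0.17 ± 0.11 and 0.29 ± 0.11 and passed in neither. The bile acid receptor Nr1h4 was higher in stressed null than in stressed control livers (0.87 ± 0.15, adjusted p = 0.00714). It was the only 1 of the 15 called in that comparison, where 0.755% of all genes were higher and 3.23% lower. In the interaction 0 of the 15 passed, Nr1h4 included.

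Over the 12 arrays, which share the 4 groups, normalized levels of Hal ran closest to those of Hopx and B4galt5 (Pearson r = 0.983 for both), of Aldh1b1 to Pias1 and Sdhd (r = 0.985 for both), of Otc to Slc2a9 (r = 0.986) and Akr1d1 (r = 0.98), of Asl to Lage3 (r = 0.985) and Cyhr1 (r = 0.982), and of Arg1 to Plekhg1 (r = 0.961) and Vwa5a (r = 0.952). Tat ran closest to Traf2 (r = 0.945) and Ttc17 (r = 0.93). For Cps1 (Pnpla2, r = 0.858; Pdxp, r = 0.834) and Ass1 (Cox10, r = 0.857; Man2c1, r = 0.853) the closest genes were less alike. Among the members themselves, Hal ran with Aldh1b1 (r = 0.95) and Arg1 (r = 0.91) and against Tat (r = -0.75). These are descriptions over arrays that differ by treatment.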

How the data were processed

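Total RNA of 12 mouse livers was extracted with Trizol and labelled as biotinylated cRNA for Affymetrix arrays, per the labels' protocols. Each deposited value is the intensity of 1 probe set on a linear scale. How the authors summarised, scaled or filtered it was not given in the sources used here, and no label names a batch. Array quantiles differed, so values were not taken as normalized. The members and gene lists, the tests and the alternatives were chosen with earlier results of these data known.

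Of 45101 probe sets 64 controls were left out. Symbols came from the platform annotation: 34945 probe sets had 1 symbol, 932 several and 9160 none, and only the first kind was used. By gene ID 34741 of these symbols were looked up in a RefSeq list (GRCm38.p6), which changed 0. The values, as log2(intensity + 16), were quantile normalized in limma 3.58.1 under R 4.3.3. The dimmest 30% of probe sets by mean were dropped and each gene was read by its brightest probe set, which left 14568 genes. Group means were fitted over all 12 arrays with lmFit and eBayes (8 residual degrees of freedom) in 5 contrasts. Calls were made at an adjusted p under 0.05 (Benjamini-Hochberg over all genes). "Rose" and "fell" are used of called genes. The number of arrays limits the precision. Replicates are biological and numbered 1 to 3 in the labels. Same-numbered arrays deviated together with r over 0.1 in 5 of 18 pairs (-0.41 to 0.49), so no pairing was used. Named genes were all members, of each further list up to 4 called genes with the largest changes or up to 2 with the smallest p, and the 2 most alike genes of each member by Pearson r. Some further list members (Tdo2, Hpd, Ftcd, Amdhd1, Nags, Slc25a15, Pck1, Cebpa and Nr3c1 in null livers, and Hnf4a) were chosen for their place in a pathway after their values were seen. The control comparison was also tried on simulated arrays (14568 genes, independent normal noise). The fit found 60 of 100 genes given a 2-fold change, 92 of 100 given a 4-fold change and 4 genes given none. No further genes were changed in the simulation, whereas 3636 were called in control livers, so these rates need not hold in the data. Plots used matplotlib 3.10.9 (Python 3.11.15).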

Additional observations from a re-analysis of the deposited data

How the results depend on the processing

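Calls of Hal and Aldh1b1 with tunicamycin held in both genotypes under every alternative run (pseudocounts, filters, scalings, probe set means, eBayes options, 2-group fits, covariates, replicate block, each array left out). In control livers 5 members were called, 4 to 5 when arrays were left out in turn, and 3 when the actin ratio entered the fit, where the count of all called genes fell from 3636 to 1885. The difference between the classes there, -0.93, was -0.75 when each gene's probe sets were averaged and -1.03 to -0.87 with arrays left out. In null livers 4 members were called, 3 to 5 with arrays left out and 2 with values as deposited. All called genes there numbered 2449, 1487 when only the 2 groups were fitted, and 1614 to 2415 with arrays left out (1614 without null vehicle replicate 1, 1617 without null tunicamycin replicate 3). Between unstressed genotypes 0 genes were called, 1 with only the 2 groups fitted and 1 with the replicate block. Between stressed genotypes 581 genes were called, 364 with only the 2 groups fitted and 279 to 588 with arrays left out (347 and 279 without control tunicamycin replicates 1 and 2, 348 without null tunicamycin replicate 1). Members called there and for the interaction were 0, and 0 to 1 with arrays left out, the 1 being Hal without null tunicamycin replicate 2. The interaction count of 122 genes was 71 with a pseudocount of 1, 186 with 64, 59 with the replicate block, and 14 to 126 with arrays left out (14 without control tunicamycin replicate 2, and at most 72 without any 1 of 9 arrays). The block took Otc in null livers past the threshold (adjusted p = 0.0506) and brought the members called there from 4 to 3. The cause of these shifts was not tested. For single members 966 of 992 alternative values kept their side of the threshold, 17 lost a call and 9 gained one. Most of the 992 belong to results not called in the main fit, which had no call to lose. The 17 lost calls were those of Otc and Asl, most of them of Otc. Arg1 in null livers gained its call under 5 alternatives (-0.44, lowest adjusted p = 0.0102).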
